A study of Mus musculus with 16 samples.

Results

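The 10 genes described here encode cytokines of the tumour necrosis factor, interleukin-10, interleukin-6 and interleukin-12 families, with interleukin-15 beside them: Tnf, Il6, Il10, Il12a, Il12b, Il23a, Osm, Lif, Il15 and Il27. They were taken by gene symbol from a count table of 24421 symbols, and all 10 were among the 13649 genes that passed a filter on low counts. RNA came from macrophages sorted as F4/80-positive cells from mouse muscle, with 4 libraries in each of 4 groups. The groups were KO mice with CTX-injected muscle, WT mice with CTX-injected muscle, KO mice with normal muscle and WT mice with normal muscle. KO stands for mice deficient in Glud1, the gene of the mitochondrial enzyme glutamate dehydrogenase, and the design text places the CTX libraries at the height of muscle damage and the normal ones at baseline. The labels do not spell out CTX or give the day, the driver or cell type of the Glud1 deletion, the strain, the age or the sex. They do not say that each library is a separate animal, and the p-values therefore describe library-to-library spread, part of which may be technical.

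Macrophages that meet damaged tissue release TNF and IL-6 family proteins early, and IL-10 is the cytokine by which they restrain the same response. IL-10 acts through STAT3, which damps transcription of Tnf, Il6 and the IL-12 chains. IL-6, oncostatin M (Osm) and LIF all signal through the shared receptor chain gp130, encoded by Il6st. The IL-12 family is built from pairs of chains: p40 (Il12b) joins p35 (Il12a) to make IL-12 or p19 (Il23a) to make IL-23, and Il27 encodes p28, which joins Ebi3 to make IL-27. IL-15 is presented by its receptor to NK and T cells, which depend on it.

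Levels are given in CPM, the usual counts-per-library-size scale of RNA-seq, with libraries scaled by trimmed-mean (TMM) factors. Library totals were 17051892 to 23097420 counts. Adgre1, the gene of F4/80, measured 676 to 1167 CPM in KO CTX, 617 to 1254 CPM in WT CTX, 509 to 572 CPM in KO normal and 524 to 698 CPM in WT normal libraries. Glud1 itself measured 327 to 351 CPM in KO CTX, 348 to 391 CPM in WT CTX, 210 to 272 CPM in KO normal and 219 to 292 CPM in WT normal libraries, and its gene-wide count did not differ past the threshold between genotypes in CTX-injected (log2 -0.14, edgeR adjusted p = 0.937) or normal muscle (log2 -0.09, edgeR adjusted p = 0.991). Which exons were deleted is not stated in the labels, and a gene-wide count therefore does not check the genotype, and KO and WT below name libraries by their labels. Xist was expressed in KO normal library 5 and in WT normal libraries 5 and 6, and Y-linked genes in the others, so every CTX library came from male cells.

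One library stood apart for these genes. WT CTX library 3 was the highest of its group for all 10 cytokine genes, whereas it was the highest for 24.3% of all genes tested and the lowest for 32.7%. Its departure was not limited to these genes. Over all genes it differed more from the rest of its group than they did from one another, as given with the processing. Some of the results in which it takes part are therefore also given without it. Within groups the cytokine genes tended to move together, with a positive Pearson correlation of log2 CPM deviations in 42 of 45 pairs over the 16 libraries (median r 0.50) and in 32 of 45 without WT CTX library 3 (median r 0.22). The same 16 libraries enter every pair, so the pairs are not independent. No such share was computed for pairs of other genes, so these numbers do not show a trait of the cytokine genes.

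**Figure D1:**
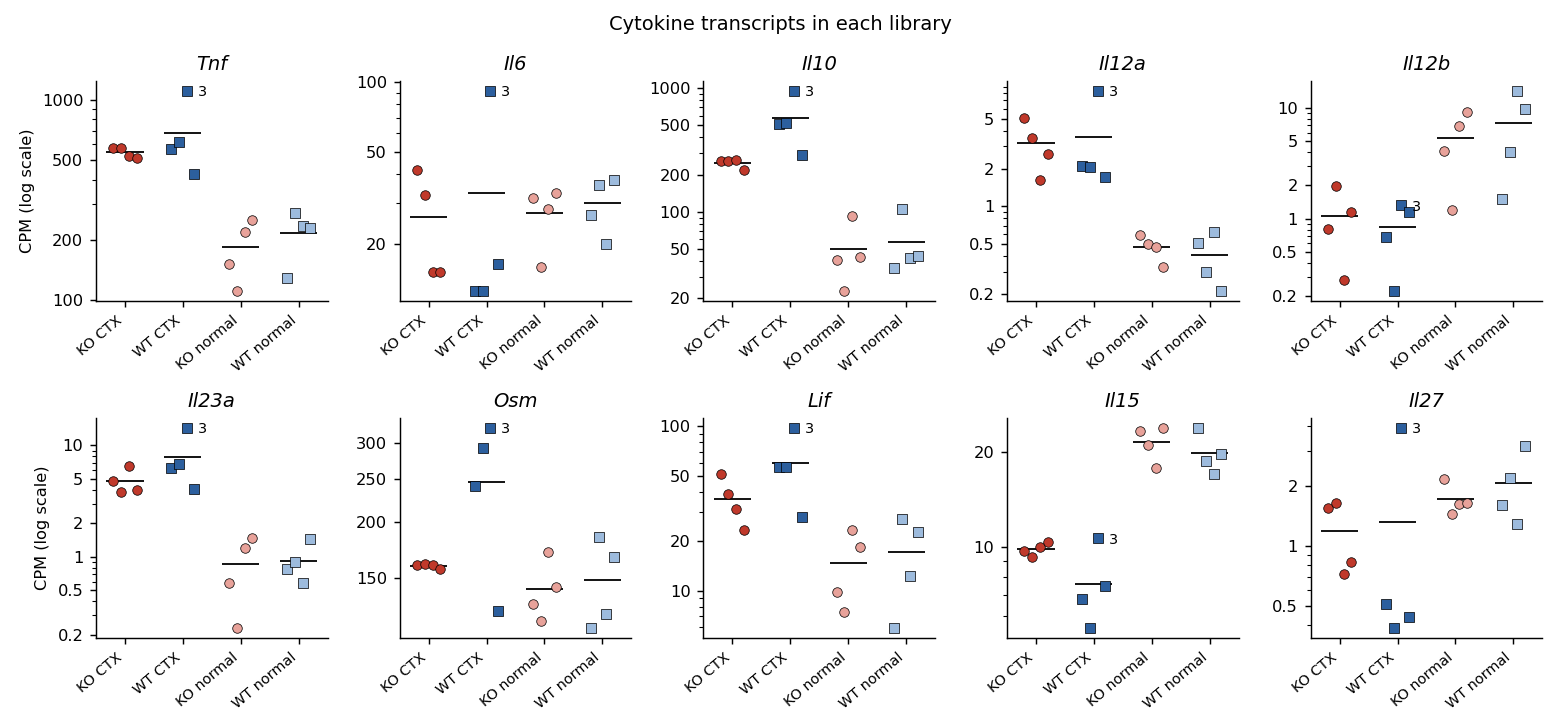
Each panel shows 1 cytokine gene, with CPM on a log axis and the groups KO CTX, WT CTX, KO normal and WT normal from left to right. Points are libraries in order of replicate number, bars are group means, and a numeral marks WT CTX library 3, which is the highest WT CTX point in every panel. Il10 and Il23a are high in both CTX groups, and Il15 and Il12b are low.

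Promoter sequence was available for Tnf, Il6, Il12a, Il12b and Lif, and 4 of these are shown because their genes behaved differently after CTX: Tnf and Lif were higher, Il12b was lower and Il6 did not pass the threshold. The sequences are the 250 bases before the RefSeq start site on GRCm38.p6, in the direction of transcription. Capitals mark matches, on either strand, to 4 motifs searched. These were a kappaB form (GGGATTTTCC with the fourth and the fifth base free), an AP-1 form (TGACTCA with its middle base free) and the CRE, which reads TGACGTCA. The last was the TATA box in the form TATAAA.
Tnf promoter, chr17:35202008-35202257, minus strand: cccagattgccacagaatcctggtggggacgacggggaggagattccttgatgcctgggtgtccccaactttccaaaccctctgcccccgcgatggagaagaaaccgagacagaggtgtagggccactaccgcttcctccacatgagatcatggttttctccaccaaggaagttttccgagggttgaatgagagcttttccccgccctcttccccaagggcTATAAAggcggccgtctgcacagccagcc
Il6 promoter, chr5:30012864-30013113, plus strand: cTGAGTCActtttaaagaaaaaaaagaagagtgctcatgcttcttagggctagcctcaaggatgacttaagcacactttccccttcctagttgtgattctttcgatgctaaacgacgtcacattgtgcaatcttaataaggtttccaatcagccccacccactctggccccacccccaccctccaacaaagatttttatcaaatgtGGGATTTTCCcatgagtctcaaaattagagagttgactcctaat
Lif promoter, chr11:4257318-4257567, plus strand: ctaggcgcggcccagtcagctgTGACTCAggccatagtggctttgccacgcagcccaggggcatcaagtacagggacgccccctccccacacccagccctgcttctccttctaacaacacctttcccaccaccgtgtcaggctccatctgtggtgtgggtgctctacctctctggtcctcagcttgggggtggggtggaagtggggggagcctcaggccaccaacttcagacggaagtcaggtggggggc
Il12b promoter, chr11:44399813-44400062, plus strand: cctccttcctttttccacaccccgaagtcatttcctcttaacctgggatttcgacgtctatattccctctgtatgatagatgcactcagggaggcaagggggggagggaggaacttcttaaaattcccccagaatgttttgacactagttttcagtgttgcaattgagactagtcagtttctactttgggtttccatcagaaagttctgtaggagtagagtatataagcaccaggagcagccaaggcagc
No match overlapped another. Tnf had a TATA box match at -29 to -24. Il6 had a kappaB match, GGGATTTTCC, at -44 to -35 and an AP-1 match, TGAGTCA, at -249 to -243. Lif had an AP-1 match, TGACTCA, at -228 to -222. Neither Il12b nor either start site of Il12a held one of these strings of letters. Over 32526 mouse promoters of the same length, 1.4% held the kappaB form, 6.73% the AP-1 form, 1.56% the CRE and 12.3% the TATA box, and a match is a description of letters only.

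The order of transcript levels was compared per kilobase of exon (CPM per kb). In KO CTX libraries Tnf averaged 333 ± 20.4 CPM per kb, Il10 191 ± 16.6 and Osm 70.3 ± 0.750 (SD, n = 4), and these 3 did not overlap. In WT CTX libraries Il10 averaged 436 ± 210 CPM per kb and Tnf 416 ± 181, which overlapped widely, and Osm 108 ± 38.4 (SD, n = 4). In both normal groups the order was Tnf, Osm, Il10, with neighbours overlapping: in KO normal libraries the means were 112 ± 39.0, 62.3 ± 9.66 and 38.4 ± 23.1 CPM per kb, and in WT normal libraries 132 ± 37.9, 65.3 ± 14.6 and 43.4 ± 25.4 (SD, n = 4). These 3 genes lay at percentiles 93 to 99.1 of all genes tested. Il6, Lif and Il15 formed a middle tier of 3.36 to 13.8 CPM per kb. The IL-12 family chains among the 10 genes were mostly lower still, with group means of 0.242 to 3.76 CPM per kb. Ebi3, a chain of this family outside the 10, had group means of 7.99 to 18.6 CPM per kb.

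In injured muscle most of these genes changed in both genotypes. In KO macrophages Tnf, Il10, Il12a, Il23a and Lif rose, Il12b and Il15 fell, and Il6, Osm and Il27 did not pass the threshold. In WT macrophages Tnf, Il10, Il12a, Il23a, Osm and Lif rose, Il12b and Il15 fell, and Il6 and Il27 did not pass. These are 7 of 10 genes in KO and 8 of 10 in WT (edgeR quasi-likelihood test, Benjamini-Hochberg adjusted p under 0.05 over all genes tested), against 73.6% of all genes tested in KO and 72.7% in WT. By direction, 5 of 10 rose and 2 fell in KO, against 33.3% and 40.2% of all genes, and 6 rose and 2 fell in WT, against 33.3% and 39.4%. The share of changed genes is thus near that of the whole table. Without WT CTX library 3 all 10 genes passed in WT, 6 higher and 4 lower, Il6 and Il27 joining those that fell, against 9656 of 13884 genes tested in that fit, 4454 higher and 5202 lower. The median log2 fold change over the 10 genes was 0.74 in KO and 1.19 in WT, against -0.16 in KO and -0.15 in WT over all genes. CTX and normal libraries did not overlap for 6 of 10 genes in KO and 7 of 10 in WT, against 66.8% of all genes in KO and 65.5% in WT. Of these, 5 in each genotype were higher in CTX, against 31.3% of all genes in KO and 30.6% in WT, and 1 in KO and 2 in WT were lower, against 35.5% in KO and 34.9% in WT.

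Markers of other cells and of tissue handling moved with this comparison. All 9 measured T and NK cell markers fell, their summed level being 4.15 to 8.62 CPM in KO CTX and 1.33 to 5.95 CPM in WT CTX, against 41.8 to 99.4 CPM in KO normal and 28.9 to 58.8 CPM in WT normal libraries. Of 8 dendritic cell markers 7 fell and 1, Xcr1, rose in both genotypes. Their sum was 55.1 to 89.4 CPM in KO CTX and 77.0 to 99.3 CPM in WT CTX, against 520 to 818 CPM in KO normal and 425 to 607 CPM in WT normal libraries. All 11 genes that tissue dissociation can induce fell, with sums of 4460 to 5265 CPM in KO CTX and 4527 to 6025 CPM in WT CTX, against 21788 to 26260 CPM in KO normal and 20658 to 26581 CPM in WT normal libraries. Fibroblast markers fell too, 7 of 7 in KO and 6 of 7 in WT, with sums of 54.3 to 68.9 CPM in KO CTX and 76.1 to 100.3 CPM in WT CTX, against 187 to 890 CPM in KO normal and 227 to 549 CPM in WT normal libraries. Of 8 mast cell markers 7 fell in each genotype and 1 rose in KO, with sums of 104 to 142 CPM in KO CTX and 66.3 to 116 CPM in WT CTX, against 143 to 244 CPM in KO normal and 159 to 475 CPM in WT normal libraries. Of 6 endothelial markers 5 fell in each genotype, with sums of 61.0 to 80.1 CPM in KO CTX and 57.3 to 73.2 CPM in WT CTX, against 159 to 215 CPM in KO normal and 119 to 171 CPM in WT normal libraries. Of 7 neutrophil markers 1 fell in KO and 6 in WT, with sums of 84.6 to 676 CPM in KO CTX and 38.0 to 159 CPM in WT CTX, against 170 to 4584 CPM in KO normal and 208 to 3061 CPM in WT normal libraries. The summed level of 10 macrophage genes was higher in CTX libraries, at 22795 to 27084 CPM in KO CTX and 30195 to 36938 CPM in WT CTX, against 12887 to 18504 CPM in KO normal and 14659 to 22397 CPM in WT normal libraries, although 4 of the 10 fell in each genotype. The part of all these genes in the results below was not tested, and in bulk RNA fewer cells of a type and less RNA per cell cannot be told apart. The scaling also matters: with library totals in place of TMM factors the median of all genes shifted by -0.61 log2 in KO and -0.62 in WT. The calls over all genes then split into 1920 higher and 8398 lower in KO and 1944 higher and 8349 lower in WT, against 4549 higher and 5491 lower in KO and 4551 higher and 5378 lower in WT with TMM.

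**Figure D2:**
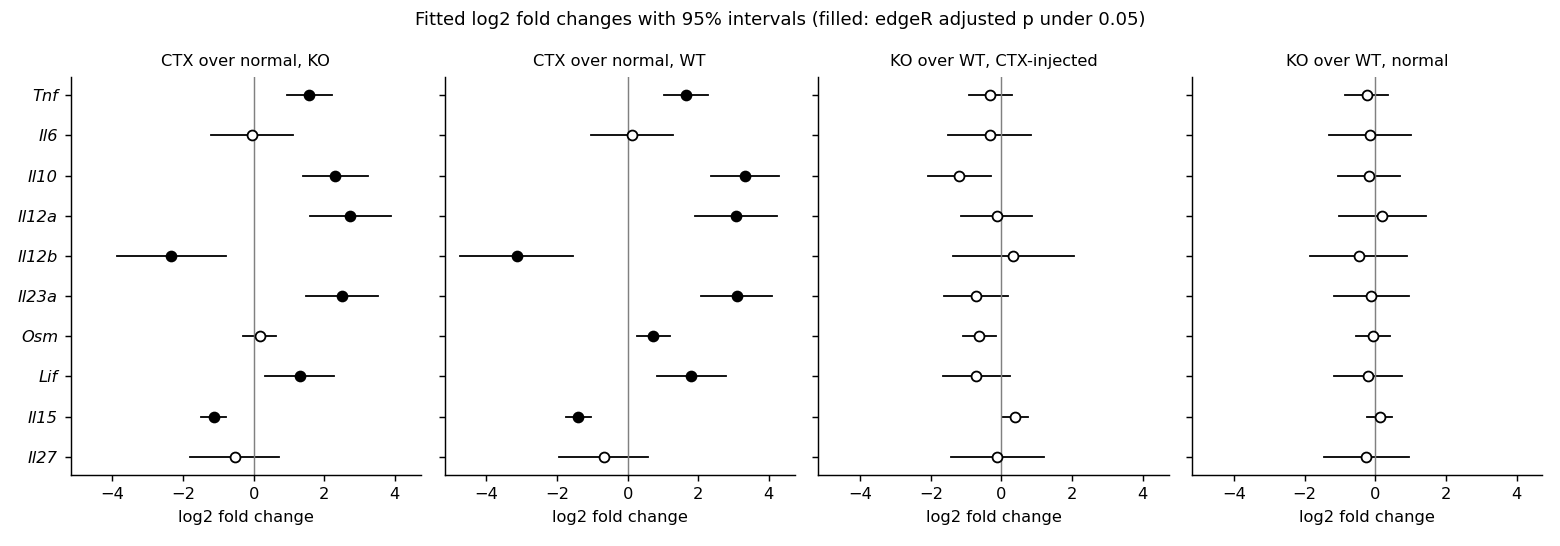
Fitted log2 fold changes of the 10 genes (points) with unadjusted 95% intervals (lines) in 4 panels: CTX over normal in KO and in WT, and KO over WT in CTX-injected and in normal muscle. Filled points passed edgeR's adjusted p of 0.05; these are 7 genes in KO and 8 in WT for CTX over normal, and none in the genotype panels.

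Tnf (chr17:35199381-35202007 on GRCm38, minus strand, 4 exon blocks) encodes the cytokine that drives inflammatory activation through NF-kappaB. It measured 575, 575, 524 and 511 CPM in KO CTX libraries and 151, 111, 218 and 252 CPM in KO normal libraries 1, 2, 3 and 5. WT libraries had 570, 620, 1108 and 427 CPM in CTX libraries and 128, 273, 235 and 230 CPM in normal libraries 2, 3, 5 and 6. Every CTX library was above every normal library, and the 4 KO CTX values lay close together while WT CTX library 3 was far above the rest. The log2 fold change was 1.58 (SE 0.30, edgeR adjusted p = 0.000172) in KO and 1.65 (SE 0.30, edgeR adjusted p = 0.000116) in WT, and 1.32 in WT without library 3. That is about a 2.99-fold rise in KO and a 3.15-fold rise in WT.

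Il10 (chr1:131019845-131024974, plus strand, 5 exon blocks), the gene of the main anti-inflammatory cytokine of macrophages, had the largest log2 rise of the 10 genes in WT. It measured 259, 259, 265 and 218 CPM in KO CTX libraries and 41.0, 23.02, 93.5 and 43.6 CPM in KO normal libraries. Among WT libraries the levels were 517, 528, 950 and 290 CPM in CTX libraries and 35.05, 107, 42.3 and 43.7 CPM in normal libraries. Again no CTX library reached down to a normal one, and library 3 was the highest of both normal groups. The log2 fold change was 2.31 (SE 0.43, edgeR adjusted p = 0.000165) in KO and 3.33 (SE 0.45, edgeR adjusted p = 6.85e-06) in WT, or 2.97 in WT without CTX library 3. The fitted rise was 4.98-fold in KO and 10.04-fold in WT.

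The 3 cytokines that signal through gp130 differed from one another. Lif (chr11:4257557-4272514, plus strand, 5 exon blocks), best known for keeping stem cells undifferentiated and released in injured muscle, measured 51.3, 39.1, 31.5 and 23.5 CPM in KO CTX and 9.88, 7.47, 23.3 and 18.4 CPM in KO normal libraries. The WT values were 56.6, 56.8, 98.2 and 28.1 CPM in CTX and 5.98, 27.5, 12.4 and 22.8 CPM in normal libraries. The lowest CTX library lay just above the highest normal library in both genotypes, so the groups were close but did not overlap. Lif rose by 1.30 log2 in KO (SE 0.46, edgeR adjusted p = 0.0178) and 1.80 in WT (SE 0.46, edgeR adjusted p = 0.00236). The call in KO did not hold with library totals (log2 0.71, edgeR adjusted p = 0.135), without KO normal library 2 (log2 1.08, edgeR adjusted p = 0.0523) or without KO CTX library 1 (log2 1.09, edgeR adjusted p = 0.0570).

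Osm (chr11:4236420-4241026, plus strand, 3 exon blocks) lies 16530 bases upstream of Lif on the same strand and encodes oncostatin M, a cytokine of inflamed tissue. It measured 160, 161, 160 and 157 CPM in KO CTX and 131, 121, 171 and 143 CPM in KO normal libraries. WT libraries had 240, 293, 325 and 126 CPM in CTX and 116, 185, 125 and 167 CPM in normal libraries. The KO CTX libraries agreed to within 4 CPM (SD 1.704), whereas WT CTX library 4 lay inside the normal range. The log2 fold change was 0.17 in KO (SE 0.22, edgeR adjusted p = 0.486) and 0.73 in WT (SE 0.22, edgeR adjusted p = 0.00776). The WT call was lost with library totals (log2 0.11, edgeR adjusted p = 0.625) and among male libraries (log2 0.71, edgeR adjusted p = 0.0575), and the KO value turned to -0.43 with library totals.

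Il6 (chr5:30013114-30019981, plus strand, 4 exon blocks), which encodes the classical acute-phase cytokine, measured 41.8, 32.7, 15.2 and 15.3 CPM in KO CTX and 31.8, 15.97, 28.5 and 33.2 CPM in KO normal libraries. Among WT libraries the levels were 12.6, 12.6, 91.4 and 16.4 CPM in CTX and 26.7, 36.1, 20.1 and 37.9 CPM in normal libraries. In WT the other 3 CTX libraries lay below every normal library, and library 3 lay above all of them. The log2 fold change was -0.06 in KO (SE 0.55, edgeR adjusted p = 0.927) and 0.13 in WT (SE 0.55, edgeR adjusted p = 0.834). Without WT CTX library 3, Il6 was lower in WT CTX than in WT normal libraries (log2 -1.12, edgeR adjusted p = 0.0115), so that this 1 library decided both the sign and the call. Set against Tnf in the same library, which needs no scaling, the Il6 to Tnf count ratio was 0.0290 to 0.0728 in KO CTX, against 0.131 to 0.211 in KO normal libraries. In WT it was 0.0203 to 0.0824 in CTX, library 3 being the highest, against 0.0857 to 0.208 in normal libraries. The ratio was lower in every CTX library than in every normal library of its genotype. It was chosen after the values were seen and is given with no test.

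The chains of the IL-12 family moved in opposite directions. Il12b (chr11:44400063-44414033, plus strand, 8 exon blocks), the p40 chain shared by IL-12 and IL-23, measured 0.81, 1.98, 0.28 and 1.14 CPM in KO CTX and 4.06, 1.19, 6.87 and 9.29 CPM in KO normal libraries. The WT values were 0.68, 0.22, 1.33 and 1.15 CPM in CTX and 1.52, 4.04, 14.3 and 9.75 CPM in normal libraries. Counts behind the CTX values were 4 to 35 per library. The groups did not overlap in WT and overlapped in KO, where CTX library 2 exceeded normal library 2. Il12b fell by 2.33 log2 in KO (SE 0.73, edgeR adjusted p = 0.00891) and by 3.13 log2 in WT (SE 0.75, edgeR adjusted p = 0.00148). The replicate block for this comparison tied CTX libraries to normal ones of the same number, a link the labels do not give. With it the values were -1.60 in KO (edgeR adjusted p = 0.0503), where the call was lost, and -2.02 in WT (edgeR adjusted p = 0.0360). The 3 female libraries had the 3 highest Il12b values of the study, and among male libraries the fold change was -1.94 in KO (edgeR adjusted p = 0.0190) and -1.72 in WT (edgeR adjusted p = 0.0597). Of 8 markers of dendritic cells, which also make p40, 7 fell and Xcr1 rose in both genotypes, as given above. Zbtb46, which helps define those cells, averaged 2.83 CPM in KO CTX and 29.1 CPM in KO normal libraries. Its WT means were 3.39 CPM in CTX and 25.5 CPM in normal libraries. The part of those cells was not tested.

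Il23a and Il12a, the chains that pair with p40, rose. Il23a (chr10:128296139-128298752, minus strand, 3 exon blocks) measured 4.84, 3.85, 6.60 and 4.0003 CPM in KO CTX and 0.59, 0.23, 1.19 and 1.46 CPM in KO normal libraries. WT libraries had 6.29, 6.86, 14.4 and 4.07 CPM in CTX and 0.78, 0.90, 0.59 and 1.43 CPM in normal libraries. No CTX library came near the normal range, whose values rest on 7 to 34 counts per library. The log2 fold change was 2.50 (SE 0.48, edgeR adjusted p = 0.000207) in KO and 3.09 (SE 0.48, edgeR adjusted p = 2.67e-05) in WT, or 2.63 in WT without CTX library 3.

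Il12a (chr3:68690644-68698547, plus strand, 6 exon blocks) measured 5.07, 3.51, 1.62 and 2.60 CPM in KO CTX and 0.59, 0.50, 0.47 and 0.33 CPM in KO normal libraries. Among WT libraries the levels were 2.096, 2.06, 8.31 and 1.704 CPM in CTX and 0.51, 0.30, 0.62 and 0.21 CPM in normal libraries. The normal values rest on 5 to 16 counts per library, and the CTX values on 29 to 125. The groups did not overlap in either genotype, with log2 fold changes of 2.74 in KO (SE 0.54, edgeR adjusted p = 0.000250) and 3.07 in WT (SE 0.54, edgeR adjusted p = 0.000105). In WT the value was 2.23 without CTX library 3, the highest of its group by far.

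With these opposite moves the balance of chains turned over. The count of Il23a divided by that of Il12b was 1.94 to 23.6 in KO CTX, against 0.144 to 0.194 in KO normal libraries. In WT the ratio was 3.52 to 30.8 in CTX, against 0.0410 to 0.513 in normal libraries. Il12a divided by Il12b gave 1.77 to 6.29 in KO CTX, against 0.0355 to 0.417 in KO normal libraries. In WT it gave 1.48 to 9.25 in CTX, against 0.0216 to 0.333 in normal libraries. Per kilobase, p40 was thus the least abundant of the 3 chains on average in both CTX groups (0.535 CPM per kb in KO and 0.430 in WT) and the most abundant in both normal groups (2.72 in KO and 3.76 in WT). These ratios were chosen after the values were seen and carry no test.

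**Figure D3:**
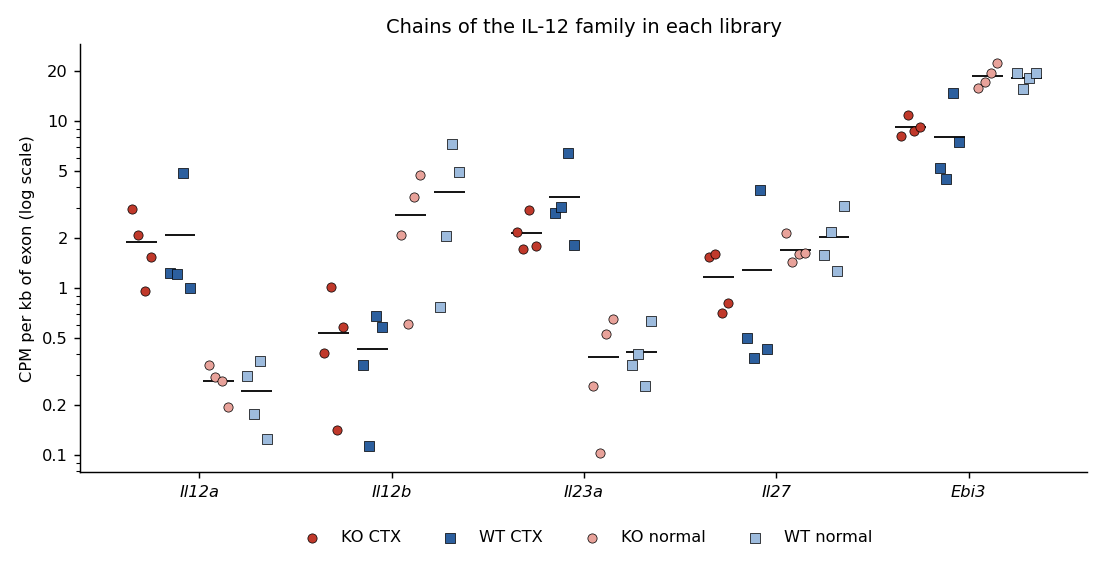
CPM per kb of exon (log axis) of the chains of the IL-12 family in each library, with the groups KO CTX, WT CTX, KO normal and WT normal from left to right within each gene and bars for group means. In both CTX groups Il12a and Il23a stand above Il12b; in both normal groups Il12b stands above them, and Ebi3 is the highest chain on average in each group.

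Il27 (chr7:126589010-126594941, minus strand, 5 exon blocks) and Ebi3, the 2 chains of IL-27, were lower in most CTX libraries. Il27 measured 1.56, 1.64, 0.73 and 0.83 CPM in KO CTX and 2.18, 1.46, 1.62 and 1.65 CPM in KO normal libraries. The WT values were 0.51, 0.39, 3.92 and 0.44 CPM in CTX and 1.602, 2.19, 1.29 and 3.16 CPM in normal libraries. The other 3 WT CTX values rest on 7 to 9 counts. Library 3 was again the exception in WT, being above every other library of the study. The log2 fold change was -0.54 in KO (edgeR adjusted p = 0.424) and -0.68 in WT (edgeR adjusted p = 0.313), and -2.19 in WT without CTX library 3 (edgeR adjusted p = 0.000246). Its exons share 103 bases with Apobr on the other strand, and the library kit keeps no strand. Ebi3 fell in both genotypes, by 1.01 log2 in KO (SE 0.27, edgeR adjusted p = 0.00280) and by 1.184 log2 in WT (SE 0.27, edgeR adjusted p = 0.000904).

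The comparisons in KO and in WT share no library, whereas each genotype comparison shares its libraries with them. Il15 (chr8:82331632-82403222, minus strand, 11 exon blocks), the survival factor of NK and memory T cells, fell with the least scatter of the 10. It measured 9.68, 9.28, 10.01 and 10.4 CPM in KO CTX and 23.5, 21.2, 17.9 and 23.9 CPM in KO normal libraries. WT libraries had 6.80, 5.52, 10.6 and 7.48 CPM in CTX and 24.0, 18.8, 17.1 and 19.8 CPM in normal libraries. The CTX and normal values were well apart in both genotypes. The fall was 1.13 log2 in KO (SE 0.17, edgeR adjusted p = 1.76e-05) and 1.39 log2 in WT (SE 0.17, edgeR adjusted p = 2.51e-06).

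Between genotypes, none of the 10 genes passed the threshold. In CTX-injected muscle 0 of 10 were called by edgeR or by DESeq2, against 0.00733% of all genes by edgeR, and in normal muscle 0 of 10 against 0% of all genes. At an unadjusted p under 0.05 the numbers were 3 of 10 (Il10, Osm and Il15) among 910 of all genes in CTX-injected muscle, and 0 of 10 among 390 in normal muscle. In simulated counts for KO against WT in CTX-injected muscle edgeR recovered 67.0% of genes changed by 1 log2 unit and 85.9% of those changed by 2, over 13319 genes. The changed genes, 100 of each size, were drawn at random from all genes, and 6 unchanged genes were called. These shares do not give the power for the 10 cytokine genes, whose SE ran from 0.17 for Il15 to 0.81 for Il12b. The median log2 difference of KO from WT over the 10 genes was -0.33 in CTX-injected and -0.16 in normal muscle, against -0.02 in CTX-injected and 0.00382 in normal muscle over all genes. The sign in CTX-injected muscle rested on WT CTX library 3. Without it Tnf (0.019), Il6 (0.92), Il12a (0.71) and Il27 (1.40) turned above 0, and Il12b (0.61) and Il15 (0.58) stayed above. Il10 (-0.83), Il23a (-0.25), Osm (-0.46) and Lif (-0.38) stayed below 0.

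Il10 was the 1 cytokine gene whose KO and WT CTX libraries did not overlap, against 5.7% of all genes, of which 1.83% were higher and 3.87% lower in KO. It averaged 250 ± 21.7 CPM in KO CTX and 571 ± 275 CPM in WT CTX libraries (SD, n = 4), and the highest KO CTX library, at 265 CPM, was below the lowest WT CTX library, at 290 CPM. The log2 difference was -1.19 (SE 0.42, 95% interval -2.07 to -0.31, unadjusted p = 0.0111, edgeR adjusted p = 0.580). An exact two-sided permutation test of CPM gave p = 0.0286, the smallest that 4 against 4 libraries allow, among 40 such tests of these genes that were not adjusted. Without WT CTX library 3 the difference was -0.83 (edgeR adjusted p = 0.778). In normal muscle the log2 difference was -0.18 (95% interval -1.05 to 0.70, edgeR adjusted p = 0.991). The test of the difference between these genotype effects gave -1.01 (SE 0.58, unadjusted p = 0.102, edgeR adjusted p = 1), so the effect was not shown to depend on injury. Leaving out 1 library at a time it ran from -1.51 without WT normal library 3 to -0.51 without KO normal library 3, and was -0.65 without WT CTX library 3.

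Tnf did not share this pattern, with a log2 difference of -0.32 in CTX-injected muscle (SE 0.29, 95% interval -0.93 to 0.29, edgeR adjusted p = 0.954). The Il10 to Tnf count ratio was 0.450, 0.450, 0.506 and 0.426 in KO CTX and 0.907, 0.852, 0.857 and 0.679 in WT CTX libraries. In normal muscle it was 0.272, 0.208, 0.429 and 0.173 in KO and 0.274, 0.390, 0.180 and 0.190 in WT libraries. The CTX genotypes were apart in this ratio and the normal genotypes overlapped, and WT CTX library 3 lay inside the range of its group here. KO CTX and KO normal libraries overlapped through KO normal library 3. The ratio was picked after the values were seen and is given with no test. Some marker sums moved with genotype in CTX-injected muscle. The macrophage sum (22795 to 27084 CPM in KO CTX and 30195 to 36938 CPM in WT CTX libraries) and the fibroblast sum (54.3 to 68.9 CPM in KO CTX and 76.1 to 100.3 CPM in WT CTX libraries) did not overlap between genotypes, while the neutrophil sum did (84.6 to 676 CPM in KO CTX and 38.0 to 159 CPM in WT CTX libraries). The 10 macrophage genes did not share the difference of their sum: their median log2 difference was 0.01, over a range of -0.89 to 0.34. Lyz2, the most abundant of them, averaged 6095 CPM per kb in KO CTX and 11317 CPM per kb in WT CTX libraries. No gene of these 3 lists passed the threshold between genotypes, and their part in the Il10 difference was not tested.

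**Figure D4:**
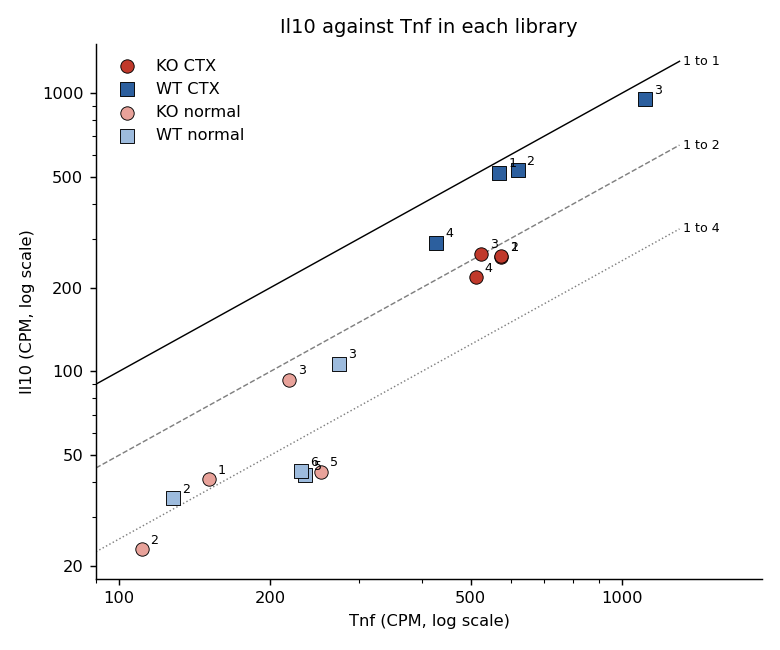
Il10 CPM against Tnf CPM in each library, both on log axes, with replicate numbers beside the points and lines of constant Il10 to Tnf ratio. The WT CTX squares lie above the KO CTX circles, which sit near the line of 1 to 2, and WT CTX library 3 is high on both axes.

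The other cytokine genes were less separated by genotype. Osm averaged 160 ± 1.704 CPM in KO CTX and 246 ± 87.3 CPM in WT CTX libraries (SD, n = 4), a log2 difference of -0.63 (SE 0.22, 95% interval -1.10 to -0.15, unadjusted p = 0.0126, edgeR adjusted p = 0.589). Its groups overlapped through WT CTX library 4, without which the difference was -0.84 (edgeR adjusted p = 0.132). Il15 ran the other way, at 9.84 ± 0.472 CPM in KO CTX and 7.61 ± 2.17 CPM in WT CTX libraries (SD, n = 4), a log2 difference of 0.38 (SE 0.17, 95% interval 0.01 to 0.74, edgeR adjusted p = 0.716). WT CTX library 3 alone exceeded the KO CTX values.

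For Lif the log2 difference in CTX-injected muscle was -0.72 (95% interval -1.67 to 0.23) and for Il23a -0.71 (95% interval -1.61 to 0.20). The intervals for Il6, Il12a, Il12b and Il27 reached at least 0.83 log2 above and 1.14 below 0, so these differences were poorly determined. Without WT CTX library 3, Il6 stood at 0.92 (edgeR adjusted p = 0.581) and Il27 at 1.40 (edgeR adjusted p = 0.342), with KO higher. In normal muscle all 10 genes overlapped between genotypes, and log2 differences ran from -0.48 for Il12b to 0.19 for Il12a. The difference between genotype effects (CTX-injected minus normal) passed the threshold for 0 of 10 genes, against 0% of all genes, and at an unadjusted p under 0.05 for 0 of 10 among 646 of all genes. It was below 0 for 7 of the 10, and the smallest unadjusted p was 0.0949, for Osm. Without WT CTX library 3 this difference turned above 0 for Tnf (0.26), Il6 (1.06) and Il12a (0.52).

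Among 18 partner chains and relatives of the cytokines, 8 were measured well enough to test. In KO 2 rose and 3 fell, and in WT 3 rose and 3 fell. Of all genes 33.3% rose in each genotype, and 40.2% fell in KO and 39.4% in WT. With library totals 5 of the partner genes fell in KO. Clcf1, a gp130 cytokine related to LIF, averaged 35.8 ± 1.20 CPM in KO CTX and 6.72 ± 3.32 CPM in KO normal libraries, and 49.6 ± 10.5 CPM in WT CTX and 6.91 ± 2.96 CPM in WT normal libraries (SD, n = 4). It rose by 2.42 log2 in KO and 2.85 in WT. Tnfsf14, which encodes the TNF relative LIGHT, rose by 1.38 log2 in KO and 1.81 in WT. Ltb, the lymphotoxin chain made mostly by lymphocytes, fell by 1.66 log2 in KO and by 1.77 log2 in WT. Tnfsf9, the gene of the 4-1BB ligand, rose by 1.05 log2 in WT and stood at 0.38 in KO (edgeR adjusted p = 0.197), turning to -0.23 in KO with library totals.

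Of 16 receptor genes 4 rose and 10 fell in each genotype, against 33.3% of all genes that rose in each and 40.2% that fell in KO and 39.4% in WT, with a median log2 fold change of -0.71 in KO and -0.72 in WT against -0.16 in KO and -0.15 in WT over all genes. Tnfrsf1b, which encodes TNF receptor 2, averaged 3333 ± 481 CPM in KO CTX and 657 ± 192 CPM in KO normal libraries, and 3913 ± 663 CPM in WT CTX and 709 ± 170 CPM in WT normal libraries (SD, n = 4). It rose by 2.34 log2 in KO and 2.46 in WT, while Tnfrsf1a, the receptor with the death domain, stood at -0.20 in KO (edgeR adjusted p = 0.138) and fell by 0.51 log2 in WT (edgeR adjusted p = 0.00111). The chains of the IL-10 receptor parted: Il10rb, the chain shared with other cytokines, rose by 1.35 log2 in KO and 1.30 in WT, and Il10ra, which binds IL-10, fell by 0.71 log2 in KO and by 0.77 log2 in WT. The gp130 receptors did not all move alike. Il6st fell by 0.70 log2 in KO and by 0.71 log2 in WT. Il6ra fell by 0.67 log2 in KO and by 0.62 log2 in WT, and Lifr by 1.24 log2 in both. Il11ra1, which also works with gp130, went the other way, as given below.

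The receptor chains of IL-12 and IL-27 fell. Il27ra averaged 3.88 ± 1.28 CPM in KO CTX and 22.8 ± 4.76 CPM in KO normal libraries, and 3.13 ± 1.04 CPM in WT CTX and 23.3 ± 4.82 CPM in WT normal libraries (SD, n = 4). Il12rb1 fell by 2.91 log2 in KO and by 2.64 log2 in WT, and Il12rb2 by 1.74 log2 in KO and by 1.72 log2 in WT. Il2rb, the signalling chain for IL-15, averaged 1.08 CPM in KO CTX and 14.97 CPM in KO normal, and 0.603 CPM in WT CTX and 6.41 CPM in WT normal libraries. It is also one of the T and NK cell markers whose sum fell as given above. Osmr, the specific chain of the oncostatin M receptor, was under 5 CPM on average in each group. With library totals 2 receptors rose in place of 4 in each genotype, and Il11ra1, which rose by 0.59 log2 in KO and 0.26 in WT, then stood at -0.02 in KO and -0.36 in WT. No receptor passed the threshold between genotypes.

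**Figure D5:**
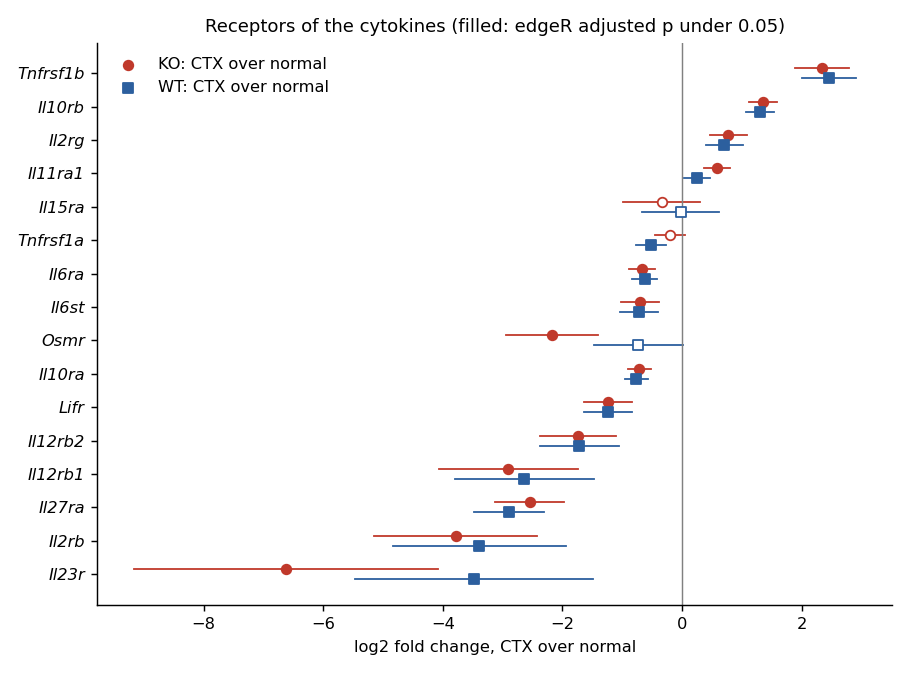
Log2 fold change, CTX over normal, of 16 cytokine receptor genes in KO (circles, upper) and WT (squares, lower), with unadjusted 95% intervals and filled symbols for edgeR adjusted p under 0.05. Tnfrsf1b and Il10rb lie at the high end, and Il12rb1, Il27ra, Il2rb and Il23r, all at low levels in CTX libraries, at the low end. Il23r averaged 0.0144 CPM in KO CTX libraries, so its fitted fold change depends on the prior count.

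Signalling and feedback genes were mixed. Of 16 JAK-STAT and TNF signalling genes 7 rose and 4 fell in KO, and 7 rose and 3 fell in WT. Of all genes 33.3% rose in each genotype, and 40.2% fell in KO and 39.4% in WT. With library totals these counts became 2 and 8 in KO and 1 and 10 in WT, so their direction depended on the scaling. The kinase gene Jak2 rose by 1.08 log2 in KO and 1.30 in WT, Stat5b fell by 0.88 log2 in KO and by 0.82 log2 in WT, and Stat3, the main transcription factor downstream of IL-6 and IL-10, stood at 0.28 in KO (edgeR adjusted p = 0.348) and 0.01 in WT (edgeR adjusted p = 0.982). Tyk2, Map3k7 and Traf2 were the other genes of smallest p. Tyk2, a JAK used by IL-12 and IL-10 receptors, fell by 0.84 log2 in KO and by 0.80 log2 in WT.

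Of 14 feedback and response genes 9 rose and 2 fell in KO, and 8 rose and 2 fell in WT, against 33.3% of all genes that rose in each and 40.2% that fell in KO and 39.4% in WT, and with library totals 5 rose and 4 fell in KO. Il1rn, the IL-1 receptor antagonist, which IL-10 can induce, averaged 2909 ± 178 CPM in KO CTX and 144 ± 86.7 CPM in KO normal libraries, and 3451 ± 660 CPM in WT CTX and 224 ± 116 CPM in WT normal libraries (SD, n = 4). It rose by 4.34 log2 in KO and 3.94 in WT. The inhibitors of NF-kappaB signalling Tnip1 and Nfkbia rose, Tnip1 by 2.51 log2 in KO and 2.74 in WT and Nfkbia by 1.39 in KO and 1.63 in WT. Socs3, which restrains gp130 signalling, rose by 0.81 log2 in KO and 1.16 in WT, Socs2 fell by 2.45 log2 in KO and by 2.47 log2 in WT, and Fcgr1, an activating IgG receptor, rose by 3.04 log2 in KO and 2.68 in WT.

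Of 19 genes that regulate cytokine transcription or mRNA decay 7 rose and 8 fell in KO, and 6 rose and 7 fell in WT. These shares were near those of all genes, of which 33.3% rose in each genotype and 40.2% fell in KO and 39.4% in WT. With library totals 2 rose and 11 fell in KO, and 3 rose and 11 fell in WT. Bhlhe40, reported in mouse cells to repress Il10, rose by 1.79 log2 in KO and 1.86 in WT. Zfp36, whose product tristetraprolin destabilises Tnf mRNA, fell by 1.24 log2 in KO and by 1.17 log2 in WT. Zfp36 is also known as an early response gene, and the dissociation genes fell beside it. Cebpb rose by 1.41 log2 in KO and 1.28 in WT, Cebpd fell by 1.55 log2 in KO and by 1.40 log2 in WT, and Batf3, a factor of dendritic cells, fell by 4.19 log2 in KO and by 3.85 log2 in WT. The 4 genes of release and processing, Adam17, Rhbdf2, Adam10 and Furin, all rose in both genotypes, against 33.3% of all genes in each. Adam17, the protease that sheds TNF, rose by 1.08 log2 in KO and 0.98 in WT. With library totals 2 of these 4 still rose in WT. No gene of these lists passed the threshold between genotypes in either tissue.

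Genes whose levels followed those of a cytokine gene within groups were named by Pearson correlation of log2 CPM deviations from the group means over the 16 libraries, as a description. For Tnf the closest were Areg (r 0.958), Maff (0.948) and Ccl3 (0.944). For Il10 they were Gyk (0.942), Mapkapk2 (0.941) and Jak2 (0.936). For Lif they were Tlk2 (0.958), Tiparp (0.956) and Nfkb1 (0.944), and for Osm Brwd3 (0.919), Svil (0.912) and Dgkh (0.908). Without WT CTX library 3 the r of these 12 genes stayed between 0.889 and 0.960. For Il6 they were Ccl4 (0.927), Peli1 (0.917) and Ppm1h (0.904), which became 0.777, 0.744 and 0.815 without that library, and for Il15 Cnst (0.903), Themis2 (0.868) and Pik3cd (0.860), which became 0.808, 0.777 and 0.708.

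Some normal libraries with the same number stood at the same end of their groups in both genotypes. Library 3 was the highest of its group for Il10, Osm and Lif in both KO and WT, and library 2 was the lowest of its group for Tnf, Il10, Il12b, Osm and Lif in both. Number 5 ran the other way: KO normal library 5 was the highest of its group for Il6, Il23a and Il15 and the lowest for Il12a, and WT normal library 5 was the lowest for Il6, Il23a and Il15 and the highest for Il12a. The neutrophil marker sum was highest in library 2 of both groups, with 4584 CPM for KO and 3061 CPM for WT, against 170 to 1331 CPM in the other KO normal and 208 to 973 CPM in the other WT normal libraries. Whether this bears on the cytokine levels was not tested.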

How the data were processed

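RNA of F4/80-positive muscle macrophages was extracted using the RNeasy Micro kit and converted to libraries by SMART-Seq V4, per the labels' protocols, a full-length chemistry that keeps no strand. The deposited values are raw read counts per gene symbol. Per the submitters' processing notes reads were handled with HISAT2 2.1.0, Subread 1.6.2, cutadapt 1.18 and FastQC 0.11.7, on mm10. The annotation and the treatment of multi-mapping reads are not given in the sources used here. Amplified reads carry no molecular identifiers.

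A low-count filter (filterByExpr, by group) left 13649 genes, which were tested in edgeR 4.0.16 (R 4.3.3) by its quasi-likelihood test with TMM scaling. All 16 libraries entered 1 model with a mean for each group, and p-values were adjusted by Benjamini-Hochberg at 0.05. Log2 CPM used a prior count of 2. Comparisons were CTX against normal muscle in each genotype, KO against WT in each tissue, and the interaction. Gene positions came from GENCODE M21 on GRCm38, in which 23376 symbols matched, and promoters from RefSeq, in which 5 of the 10 genes matched. Named list genes were those of smallest p in the WT injury comparison, up to 5 a list. Some others, Stat3, Socs3, Adam17, Tnfrsf1a, Il2rb, Osmr, Zbtb46, Il6st, Il6ra, Il12rb1, Il12rb2 and Il11ra1, were named after their values were seen. The 10 genes, the lists and the tests were chosen with earlier results of these data known. The script was tested on simulated data.

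Each library was counted as a sample of its own. Pairs of libraries in a group differed by more than sampling noise. The lowest chi-square per degree of freedom was 6.03, for WT CTX libraries 1 and 2. KO CTX libraries 3 and 4 had 7.31, and the next lowest pair 13. WT CTX library 3 had 61.9 to 65.5 against the other libraries of its group, which had 6.03 to 39.5 among themselves. Pairs within the normal groups had 30.8 to 97.3. Separate preparations of 1 sample can also differ by more than sampling noise, so this does not show that the libraries are separate animals. The labels do not say what the library numbers mark. Deviations of same-numbered normal libraries correlated across genotypes at 0.832, 0.779 and 0.327 for numbers 2, 3 and 5. No correlation was computed between libraries of unlike number, so whether the numbers pair the normal libraries was not settled. The blocked fit changed no call in normal muscle. Alternatives were RLE factors, library totals, DESeq2 1.42.0, no filter, male libraries only, a replicate block and leaving out each library. The block was the number alone for CTX against normal muscle, and tissue with number for the genotype comparisons and the interaction. Counts and ratios of the lists were added after seeing the data.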

Additional observations from a re-analysis of the deposited data

Results flagged for a closer look

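Each of the 40 sets of 4 libraries (10 genes in 4 groups) was examined for a single value far from the other 3, by the gap to its nearest neighbour as a share of the range. Chance flags about 1 set in 20, and 5 were marked. In WT CTX library 3 Il6 was 91.4 CPM, Il12a 8.31 CPM and Il27 3.92 CPM, each far above the other 3 libraries of that group, with shares of 0.952, 0.941 and 0.966. Il10 was 106.5 CPM in WT normal library 3, high against the other 3 (share 0.879), and 217.8 CPM in KO CTX library 4, low against the other 3 (share 0.866), which agreed to within 7 CPM. The cause of these values was not tested. No cytokine gene passed the test of the difference between genotype effects.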

How the results depend on the processing

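The 8 calls in WT and 7 in KO for CTX against normal muscle kept their direction under every alternative run, and 0 of 10 cytokine genes were called between genotypes under any. Calls lost were Il12b in WT among male libraries (log2 -1.72, edgeR adjusted p = 0.0597), Il12b in KO with the replicate block (-1.60, 0.0503), Osm in WT with library totals (0.11, 0.625) and male libraries (0.71, 0.0575), and Lif in KO with library totals (0.71, 0.135), when KO normal library 2 was left out (1.08, 0.0523) and when KO CTX library 1 was (1.09, 0.0570). The number of all genes called between genotypes in CTX-injected muscle, 1 with edgeR, was 43 with DESeq2, 2 among male libraries, 4 with the replicate block and 1 to 2 leaving out a library. For the interaction it was 0, and 48 with DESeq2, 1 among male libraries and 0 to 2 leaving out a library. Same-numbered CTX libraries correlated at -0.271, -0.113, -0.236 and 0.0357, so the data gave no sign that these numbers pair them. With the replicate block, Il10 in CTX-injected muscle stood at -1.07 (edgeR adjusted p = 0.128).

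Uncalled values changed sign as follows. With library totals Il6 in WT was -0.51, Osm in KO -0.43 and Osm between genotypes in normal muscle 0.014. With the replicate block Il6 was 0.25 in KO, 0.17 between genotypes in CTX-injected muscle and 0.30 for the interaction, Il12a was 0.13 in CTX-injected muscle, -0.12 in normal muscle and 0.25 for the interaction, and Il27 was 0.41 in CTX-injected muscle. In normal muscle the block gave 0.16 for Il23a, 0.044 for Osm and 0.21 for Lif. Among male libraries Il6 was 0.029 in KO, Il12b 0.57 in normal muscle and -0.22 for the interaction, Il15 -0.0071 in normal muscle and Il27 -0.020 for the interaction.

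Leaving out 1 library at a time gave these ranges. For CTX against normal they were -1.12 to 0.41 for Il6 in WT, -0.37 to 0.13 for Il6 in KO, 1.08 to 1.63 for Lif in KO and -2.19 to -0.37 for Il27 in WT. Between genotypes in CTX-injected muscle they were -0.49 to 0.019 for Tnf, -0.65 to 0.92 for Il6, -0.45 to 0.71 for Il12a, -0.16 to 0.64 for Il12b and -0.42 to 1.40 for Il27. In normal muscle they were -0.28 to 0.056 for Il6, -0.66 to 0.33 for Il10, -0.015 to 0.48 for Il12a, -0.86 to 0.081 for Il12b, -0.46 to 0.23 for Il23a, -0.17 to 0.070 for Osm, -0.53 to 0.12 for Lif and -0.40 to 0.036 for Il27. For the interaction they were -0.24 to 0.26 for Tnf, -0.51 to 1.06 for Il6, -1.51 to -0.51 for Il10, -0.64 to 0.52 for Il12a and -0.17 to 1.65 for Il27. Feedback genes that fell in WT numbered 2, and 1 among male libraries, 1 with the block and 1 to 2 leaving out a library. The cause of these changes was not tested. Counts under 40 per library limit Il12b in CTX libraries and in library 2 of both normal groups. They limit Il12a in normal libraries, in WT CTX libraries 1, 2 and 4 and in KO CTX library 3. They also limit Il23a in normal libraries, and Il27 in all CTX libraries except WT CTX library 3 and in some normal ones.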
